A study of Mus musculus with 91 samples.

Results

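The small RNAs of extraembryonic ectoderm (Exe) and epiblast (Epi) were compared in control mouse embryos at E7.5. The members are all mature miRNAs that passed a low-count filter in the 7 control libraries of this stage, 4 of Exe and 3 of Epi. The filter asks for enough counts in as many libraries as the smaller tissue group holds, in either tissue. It kept 632 of the 1504 mature miRNAs in the table, and they held at least 99.9% of the counts of each library. Of the other 872 miRNAs, 526 had no count in any of the 7 libraries and 346 had too few. The series has 91 samples, of which 62 are Exe and Epi libraries of E6.5 and E7.5 embryos of 4 genotypes. Besides control these were Dnmt1-KO, Dnmt-null and Dnmt3a/3b-DKO, where base editing of zygotes had inactivated Dnmt1, all 3 of the DNA methyltransferase genes Dnmt1, Dnmt3a and Dnmt3b, or both Dnmt3a and Dnmt3b, respectively. Control embryos carried no engineered Dnmt mutation by their labels. They came from F1 females of a C57BL/6J by DBA2 cross, mated with males that are C57BL/6 by the labels and, by the methods, homozygous for an Oct4-EGFP transgene on a C57BL/6J background. The transgene marks pluripotent cells. Captions of the paper describe imaged control embryos as derived by its zygote editing system. The sources used here do not say whether the sequenced controls were injected. Nor do they say how many embryos made up a library or whether replicates came from separate litters, so p-values measure only the spread between these libraries. RNA was measured by CAS-seq, a Cas9-assisted small RNA sequencing method for very small inputs, and each value is the number of reads given to one mature miRNA.

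Exe is the trophoblast tissue above the embryo proper and contributes to the placenta, whereas the Epi is the pluripotent layer from which the embryo itself forms and which gastrulates at this stage. A miRNA is a short RNA that guides repression of mRNAs, largely through its seed, bases 2 to 8 from the 5′ end, so miRNAs with one seed are grouped in a family even where they are transcribed from different loci. Many miRNAs are cut from polycistronic clusters. The miR-290 and miR-302 clusters are known from early embryos and pluripotent cells, the latter from the primed state of the Epi, and a large repeated cluster inside an intron of the imprinted gene Sfmbt2 is known from rodent trophoblast.

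Sequences are shown for 4 seed families whose members come from several loci or differed in opposite directions, as mature miRNAs of RefSeq (GRCm38.p6), 5′ to 3′, with the seed in capitals. Of the 632 miRNAs, 510 had a sequence there. The first set shares the seed AAGUGCU but comes from both pluripotency clusters, miR-302b-3p and miR-302d-3p from miR-302 and the other three from miR-290.
miR-302b-3p: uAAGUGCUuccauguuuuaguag
miR-302d-3p: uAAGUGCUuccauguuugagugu
miR-291a-3p: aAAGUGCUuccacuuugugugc
miR-294-3p: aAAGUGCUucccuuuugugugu
miR-295-3p: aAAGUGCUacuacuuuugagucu
A second set shares the seed AUUGCAC and comes from several loci, miR-367-3p from miR-302, miR-363-3p from miR-106a~363, miR-25-3p from miR-106b~25, and miR-92a-3p from miR-17~92 and its X-linked copy.
miR-92a-3p: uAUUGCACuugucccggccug
miR-92b-3p: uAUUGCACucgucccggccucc
miR-363-3p: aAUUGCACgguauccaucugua
miR-25-3p: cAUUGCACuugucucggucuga
miR-367-3p: aAUUGCACuuuagcaaugguga
miR-32-5p: uAUUGCACauuacuaaguugca
A further set, from miR-17~92 and its paralogues, has the seed AAAGUGC, whose last 6 bases are the first 6 of AAGUGCU.
miR-17-5p: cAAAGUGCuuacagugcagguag
miR-20a-5p: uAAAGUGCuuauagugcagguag
miR-93-5p: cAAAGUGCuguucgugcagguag
miR-106b-5p: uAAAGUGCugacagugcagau
miR-20b-5p: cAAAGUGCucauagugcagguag
miR-106a-5p: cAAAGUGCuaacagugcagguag
The last set, with the seed CCCUGAG, held members that differed in opposite directions.
miR-125a-5p: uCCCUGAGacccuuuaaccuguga
miR-125b-5p: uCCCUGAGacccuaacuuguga
miR-351-5p: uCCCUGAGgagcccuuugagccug

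Total counts ranged from 499399 to 2069678 in the Exe libraries and from 1623256 to 2325698 in the Epi libraries, so a miRNA at 3 counts corresponds to 1.40 to 5.73 normalized CPM in Exe and 1.33 to 1.99 in Epi. Normalized CPM are CPM after scaling of each library total by its TMM factor. Libraries of one tissue resembled each other more than those of the other, with correlations of log2 CPM of 0.906 to 0.928 within Exe, 0.924 to 0.934 within Epi and 0.758 to 0.789 between them. Counts were spread less evenly in Epi. The 10 most abundant miRNAs of each library took 37.0, 38.7, 38.5 and 40.1% of the counts in Exe and 54.0, 54.4 and 55.9% in Epi, a difference of -16.2 percentage points for Exe minus Epi (exact two-sided permutation test, p = 0.0286, the smallest that 35 assignments allow). Lists of miRNAs known from each tissue separated the labelled tissues in every library. The Sfmbt2 families summed to 138100 to 178300 normalized CPM in Exe and 7605 to 8939 in Epi, and the miR-302 cluster to 35080 to 49860 and 237600 to 238500. Each tissue also held counts of the other tissue's list. The part of any carry-over between the dissected tissues in the results was not tested.

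Of the 632 miRNAs, 132 were higher in Exe and 83 higher in Epi, at an absolute log2 fold change above 0.5 and a Benjamini-Hochberg adjusted p under 0.05 in the quasi-likelihood test of edgeR. These are 20.9% and 13.1% of those tested, the background against which the lists below are read. Many Exe calls were not separate findings. Counting names with identical counts in all embryo libraries once left 112 Exe and 82 Epi calls, and 54 of the 132 Exe calls were of the Sfmbt2 families. Exe-high miRNAs had a median log2 difference of 3.37 and Epi-high ones of -2.27, while the median of all tested was -0.05. More than 10-fold differences made up 67 of the Exe calls and 18 of the Epi calls. All Exe libraries lay above all Epi libraries for 156 miRNAs (24.7%) and below them for 128 (20.3%). The abundant miRNAs were called more often, 64.0% of the 136 that reached 1000 normalized CPM in the higher tissue and 16.6% of the 320 that stayed under 100, where fewer counts give less precise values. Levels are per mature miRNA. All are of similar length, but differences in ligation between sequences are not corrected, so levels of different miRNAs are compared only roughly.

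**Figure D1:**
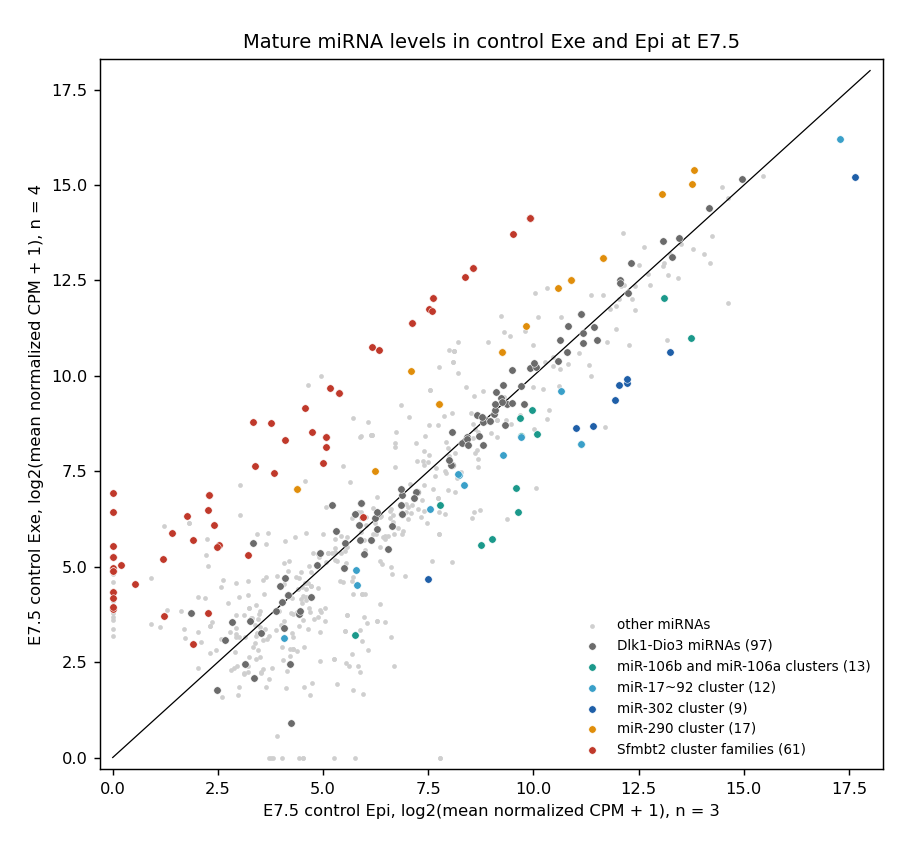
Mean level of each of the 632 miRNAs in control Epi (x axis, 3 libraries) and control Exe (y axis, 4 libraries), as log2 of mean normalized CPM plus 1, with 6 lists in colour, their number of tested members in brackets and equality as a line. Sfmbt2 and miR-290 members lie above the line except for 1 Sfmbt2 family member near it, miR-302 and the miR-17~92 paralogues below, and Dlk1-Dio3 miRNAs around it.

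The most abundant miRNAs differed in rank. miR-302b-3p was the first in Epi, with 19.7% ± 0.558 (SD, n = 3) of all counts, and the fourth in Exe, with 3.89% ± 0.52 (SD, n = 4). miR-92a-3p was first in Exe at 7.88% ± 0.753 and second in Epi at 15.4% ± 1.1. miR-295-3p, miR-293-3p and miR-291a-5p, all of miR-290, held ranks 2, 6 and 8 in Exe and ranks 12, 14 and 28 in Epi. miR-92b-3p, a relative of miR-92a from its own locus, held rank 6 in Epi and rank 59 in Exe. Other abundant miRNAs held their place. The ranks of miR-5099 (3 in both), miR-191-5p (7 in both) and miR-409-3p (10 in both) were equal in the tissues, and miR-127-3p held rank 5 in Exe and 4 in Epi.

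The miR-302 cluster (chr3:127545228-127545807, GRCm38) was the most abundant Epi-high locus. All 9 tested members of 10 were higher in Epi, with log2 differences between -2.90 and -2.26 and a median of -2.45. miR-302b-3p, its main product, stood at 39160, 42970, 30290 and 38250 normalized CPM in the 4 Exe libraries and at 205000, 207000 and 205400 in the 3 Epi libraries. Every Epi library was thus above every Exe library, by a fold of 5.46 (log2 difference -2.45 ± 0.11 (SE), adjusted p = 1.07e-07). Its neighbours were lower in level but differed alike. miR-302a-5p read 1642, 2032, 1307 and 1290 in Exe and 9819, 9695 and 9620 in Epi, and miR-302d-3p read 967, 1121, 832 and 954 in Exe and 5136, 4317 and 4911 in Epi. The largest difference of the cluster was that of miR-367-3p, with 30.6, 33.4, 7.45 and 26.8 in Exe against 127, 176 and 235 in Epi, a 7.44-fold difference at low counts. As a whole the cluster took 22.2 to 23.2% of the counts in Epi libraries and 3.64 to 5.05% in Exe libraries.

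The miR-290 cluster (chr7:3218626-3220841) lay on the other side. All 17 tested members of 18 were higher in Exe, with a median log2 difference of 1.52, so the difference was smaller than that of miR-302 but in the same range for nearly all members. Some names had identical counts in all embryo libraries. Counting each such set once, 14 of 14 were higher in Exe, and the members summed to 126700 to 166300 normalized CPM in Exe and 47550 to 51190 in Epi. miR-295-3p read 40130, 49700, 38120 and 43790 normalized CPM in Exe and 14430, 14320 and 14740 in Epi, 2.96-fold higher in Exe (log2 difference 1.57 ± 0.10 (SE), adjusted p = 1.86e-06). miR-293-3p read 31380, 37800, 32430 and 32300 in Exe and 13430, 13360 and 14830 in Epi, and miR-291a-5p 25570, 32580, 24840 and 28310 in Exe and 8236, 8055 and 9253 in Epi. Neither overlapped between the tissues. The largest difference of the cluster, that of miR-291b-5p (log2 difference 3.06 ± 1.05 (SE), adjusted p = 0.0476), rested on 1 library. Its levels were 288, 3686, 243 and 262 in Exe and 136, 174 and 94.1 in Epi, so 3 of the 4 Exe libraries lay close together and Exe replicate 2 far above. Without that library the log2 difference was 0.88, and it was not called without any 1 of the 3 Epi libraries. The cluster's summed level was 133200 to 176600 in Exe and 50170 to 53650 in Epi, which is 13.8 to 17.9% and 4.89 to 4.99% of the counts. It was therefore still abundant in Epi, unlike the Sfmbt2 families.

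Because the AAGUGCU seed is shared by both clusters, its summed level depended on both. The 5 tested carriers with a known sequence summed to 70030 to 94620 normalized CPM in Exe and 224900 to 226000 in Epi. Within the family, miR-302b-3p and miR-302d-3p were higher in Epi and miR-291a-3p, miR-294-3p and miR-295-3p higher in Exe. miR-294-3p read 644, 699.6, 560 and 545 in Exe and 224, 249 and 169 in Epi, and miR-291a-3p 158, 156, 223 and 189 in Exe and 104, 54.0 and 66.3 in Epi. The call of miR-291a-3p was lost without Epi replicate 2 or 3. Thus Exe libraries held roughly equal amounts of miR-295-3p and miR-302b-3p, while in Epi miR-302b-3p exceeded miR-295-3p in each library by more than 10-fold. The seed AUUGCAC differed in 1 direction. Of its 6 tested carriers 5 were higher in Epi, and they summed to 81880 to 96740 in Exe and 196900 to 228300 in Epi. miR-92b-3p read 3761, 3481, 3691 and 4349 in Exe and 21770, 25430 and 28420 in Epi (6.60-fold, log2 difference -2.72 ± 0.12 (SE), adjusted p = 1.08e-07). miR-363-3p read 2038, 2351, 1732 and 2077 in Exe and 15800, 13300 and 12190 in Epi. In both, all Epi libraries lay far above all Exe libraries. Their relative miR-25-3p differed by 2.12-fold, from 3972 to 4468 in Exe to 8657 to 9083 in Epi. miR-92a-3p, the most abundant carrier, differed by 2.11-fold, with 72010, 72930, 73930 and 85820 in Exe and 154800, 148900 and 178600 in Epi. The exception, miR-32-5p, was not called, with 51.5, 31.1, 16.3 and 13.4 in Exe and 37.4, 25.1 and 12.6 in Epi.

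**Figure D2:**
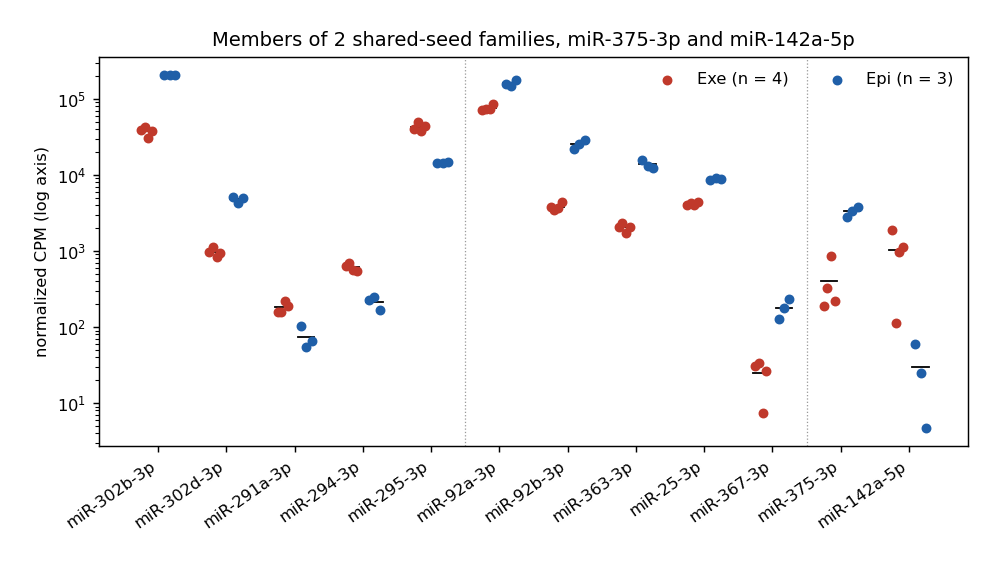
Normalized CPM (log axis) in each control library of 5 miRNAs with the seed AAGUGCU (left of the first dotted line), 5 with AUUGCAC (middle), and miR-375-3p and miR-142a-5p (right). Red points are Exe libraries, blue points Epi libraries and black bars their means. The first family splits by cluster, and the 5 plotted members of the second are higher in Epi, while its uncalled member miR-32-5p is not plotted.

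The miR-17~92 cluster (chr14:115043671-115044506) and its paralogues miR-106b~25 (chr5:138165321-138165818) and miR-106a~363 (chrX:52741693-52742567) are best known from proliferating cells. Of the miR-17~92 list, 7 of 12 tested miRNAs were higher in Epi and 0 in Exe, with a median log2 difference of -1.07. Of the paralogue list 11 of 13 were higher in Epi and 0 in Exe, with a median of -2.53. By position, the X-linked miR-106a~363 cluster had 9 tested miRNAs, with 8 calls and a median of -2.80. These are not a subset of the paralogue list, as they include miR-92a-3p, which miR-17~92 also encodes. Counts of such shared products cannot be assigned to 1 locus. miR-92a-2-5p, an arm of the X-linked copy, is in both lists. The largest differences were those of members of the X-linked cluster. miR-20b-5p read 62.8, 122, 89.4 and 68.8 in Exe and 835, 756 and 785 in Epi (9.17-fold, log2 difference -3.20 ± 0.27 (SE), adjusted p = 1.06e-05). No Exe library came near any Epi library. miR-106a-5p read 30.6, 55.3, 70.3 and 28.7 in Exe and 523, 343 and 426 in Epi, and miR-18b-3p 74.0, 81.8, 42.8 and 7.64 in Exe and 485, 422 and 644 in Epi. For comparison, miR-17-5p of the founding cluster read 814, 598, 762 and 948 in Exe and 1628, 1699 and 1470 in Epi, a 2.05-fold difference. All 6 miRNAs with the seed AAAGUGC were higher in Epi (miR-106b-5p not without Epi replicate 2), and they summed to 1413 to 1760 in Exe and 4105 to 4842 in Epi.

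The Sfmbt2 cluster had the largest Exe-high differences. It lies on chromosome 2 (chr2:10466663-10518279), and its families miR-297, miR-466, miR-467 and miR-669 arose by repeated duplication, so that many members are identical or nearly so. Of the 61 tested miRNAs of these families, out of 78, 54 were higher in Exe, 0 were higher in Epi, and the median log2 difference was 4.31. Their summed level was 138100 to 178300 normalized CPM in Exe and 7605 to 8939 in Epi, or 14.3 to 18.1% and 0.707 to 0.864% of the counts. Of the 56 tested miRNAs that lie inside Sfmbt2 by position 50 were higher in Exe. Counting each set of rows with identical counts in all 62 embryo libraries once, 43 of the 50 family rows were called and the sums were 77180 to 98070 and 4148 to 4962. The most abundant row, shared by miR-466a-3p and miR-466e-3p, read 19180, 21080, 15700 and 16410 in Exe and 1058, 952 and 896 in Epi (18.7-fold, log2 difference 4.22 ± 0.15 (SE), adjusted p = 2.3e-08). miR-669a-5p, whose row equals that of miR-669p-5p, read 4376, 4327, 4124 and 4131 in Exe and 219, 181 and 185 in Epi. All of these rows kept the tissues apart. miR-669h-5p read 98.2, 121, 114 and 147 in Exe and had no count in any Epi library, which makes it at least 72.6-fold higher in Exe against 3 counts per Epi library. Other strongly different members were miR-669f-3p (364 to 492 in Exe, 0 to 24.5 in Epi), miR-669l-5p (386 to 477 in Exe and 5.30 to 17.3 in Epi), miR-466h-5p (499 to 669.6 in Exe and 14.7 to 27.8 in Epi), miR-466n-3p (1571 to 1887 in Exe and 46.4 to 87.9 in Epi) and miR-466g (763 to 873 in Exe and 7.64 to 55.0 in Epi). miR-466b-5p, with the same row as miR-466o-5p, ranged from 95.0 to 139.5 in Exe and from 2.22 to 6.63 in Epi. None of these overlapped between the tissues. The differences of miR-669f-3p and miR-466b-5p, 5.67 and 4.90 on the log2 scale, were 8.20 and 5.50 without Epi replicate 3, and that of miR-669f-3p was 5.08 without Epi replicate 2. Of the 7 family members that were not called, each had a positive log2 difference, the smallest being 0.35.

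Outside these clusters, miR-672-5p was among the most Exe-high, with 657, 1163, 856 and 793 normalized CPM in Exe and 40.02, 25.1 and 6.63 in Epi (35.6-fold). Its log2 difference of 5.15 was 5.74 without Epi replicate 1. The X-linked cluster chrX:53047997-53054349, which holds miR-322, miR-503, miR-351, miR-450 and miR-542 and is known from differentiating mesoderm and placenta, had 6 of 12 tested members higher in Exe and 1, miR-450a-5p, higher in Epi. miR-351-5p read 13770, 10410, 14750 and 16310 in Exe and 5618, 3852 and 3962 in Epi, and miR-322-3p 6196, 3385, 4591 and 4393 in Exe and 1432, 1044 and 676 in Epi. Both were higher in all Exe than in all Epi libraries. miR-450a-5p, by contrast, had a small difference (-0.55 ± 0.19 on the log2 scale), and its call was lost without any 1 of 5 libraries (Exe replicate 1 or 3, or any Epi replicate). miR-322-5p was the 1 carrier of the seed AGCAGCA called among 6 tested, with 199.6, 161, 163 and 271 in Exe and 57.8, 51.9 and 19.9 in Epi. The germline X-linked cluster (chrX:66776757-66839125), known from testis, had 14 of 23 tested miRNAs higher in Exe and 0 in Epi, with a median log2 difference of 2.56, or 3.18 without Epi replicate 2. miR-470-5p read 1511, 2017, 2813 and 1296 in Exe and 194, 530.1 and 157 in Epi, which is 2.70 on the log2 scale, or 3.45 without Epi replicate 2. miR-741-3p read 1716, 1824, 2238 and 741 in Exe and 206, 408 and 149.8 in Epi. Its summed level ranged widely within the tissues, from 7178 to 17890 in Exe and from 1251 to 3270 in Epi, without overlap.

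With the seed CCCUGAG, miR-351-5p was Exe-high as described, miR-125b-5p was higher in Epi and miR-125a-5p was not called. miR-125b-5p read 20.9, 148, 82.8 and 53.5 in Exe and 307, 469 and 341 in Epi (4.83-fold, log2 difference -2.27 ± 0.53 (SE), adjusted p = 0.00715). Without Exe replicate 2 the log2 difference was -2.87. miR-125a-5p, a far more abundant relative, read 5147, 13380, 10310 and 3279 in Exe and 9589, 9734 and 7157 in Epi and differed more among Exe libraries than between the tissues. Of the let-7/miR-98 family, which accumulates as cells differentiate, let-7e-5p was higher in Exe (241 to 377 in Exe against 111 to 178 in Epi), let-7c-5p was higher in Epi (22.5 to 46.1 in Exe against 60.6 to 95.4 in Epi), and 7 of 9 tested were not called. Both calls are weak. That of let-7e-5p was lost without Exe replicate 2 or Epi replicate 2, and that of let-7c-5p without any 1 library except Exe replicate 2. The whole family summed to only 833 to 1310 in Exe and 684 to 939 in Epi.

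Of the neural list the Epi-high miRNAs were all of the miR-219 family, and of the endoderm list miR-375-3p was higher in Epi while miR-192-5p and miR-194-5p were higher in Exe. miR-219a-2-3p, known from neural cells, had no count in any of the 4 Exe libraries and 235, 222 and 194 normalized CPM in Epi, at least 56.3-fold higher against 3 counts per Exe library. Its row equals that of miR-219b-5p, and the counts of the pair cannot be told apart. Of the 7 tested neural miRNAs 4 were higher in Epi and 0 in Exe, or 3 of 6 when that row is counted once. The other 2 names, miR-219a-1-3p and miR-219c-5p, had the same counts as each other in these 7 libraries, so the 4 calls rest on 2 distinct sets of counts. They each read 6.44, 16.1, 6.05 and 15.3 in Exe and 36.9, 91.7 and 100.1 in Epi, while the list summed to 12.9 to 89.9 in Exe and 688 to 805 in Epi. miR-9-3p, a defining neural miRNA, was low and not called, with log2 differences of -1.51 without Epi replicate 1 and -3.05 without Exe replicate 3 (0 to 20.5 in Exe, 15.9 to 81.8 in Epi). miR-375-3p, known from endoderm and endocrine cells, read 188, 324, 869 and 219.7 in Exe and 2767, 3345 and 3848 in Epi (8.21-fold, log2 difference -3.04 ± 0.49 (SE), adjusted p = 0.00098). Epi was above Exe in every library, although Exe replicate 3 was far above the other Exe libraries and the log2 difference was -3.79 without it. miR-222-3p, a regulator of cell cycle inhibitors, read 142, 126, 69.8 and 193 in Exe and 978, 1054 and 1173 in Epi. Further large Epi-high differences were those of miR-92b-5p (39.2 to 99.4 in Exe, 608 to 742 in Epi), miR-92a-2-5p (212 to 382 in Exe and 1998 to 2562 in Epi) and miR-325-3p (17.7 to 56.3 in Exe and 225 to 306 in Epi). miR-488-3p was at 0 in 3 Exe libraries and at 17.2 in Exe replicate 3, against 83.5 to 123 in Epi. Its log2 difference of -4.23 was -10.02 without Exe replicate 3, a value set by the 0 counts, and its call was lost without Exe replicate 4 or Epi replicate 1.

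Several epithelial and paralogous families were also measured. In the miR-183 cluster, known from epithelia and sensory organs, the 3 abundant 5p arms, of miR-182, miR-183 and miR-96, were higher in Epi. miR-182-5p read 8013, 10360, 9838 and 9000 in Exe and 17480, 16640 and 16960 in Epi, a 1.83-fold difference. The miR-200 family, which maintains epithelial identity, had 1 of 8 tested members called, miR-200b-5p in Exe (688 to 888 in Exe against 321 to 569 in Epi), and this call was lost without Exe replicate 3, Epi replicate 1 or Epi replicate 3. miR-205-5p, an ectodermal miRNA, was higher in Epi (262 to 493 in Exe against 732 to 1308 in Epi). In the miR-23/27/24 family miR-27b-3p read 2041, 1858, 1955 and 2068 in Exe and 8939, 9256 and 9470 in Epi (4.66-fold), and its cluster neighbour miR-23b-3p differed by 4.51-fold. miR-23b-5p was also Epi-high, whereas miR-24-2-5p, called in Exe, overlapped, with 90.1, 4.61, 96.3 and 86.0 in Exe and 2.67, 4.91 and 0 in Epi, and lost its call without Epi replicate 1 (its log2 difference of 4.70 was 5.50 without Epi replicate 2). miR-27b-3p and miR-23b-3p did not overlap between the tissues. miR-30c-5p was the 1 of 12 tested miR-30 members that was called, with 7811, 8066, 7223 and 8952 in Exe and 18300, 18050 and 19970 in Epi. Of the miR-181 family 4 of 6 were higher in Epi (miR-181a-5p, miR-181b-5p, miR-181d-5p and, at low counts, miR-181a-1-3p), and the call of miR-181a-5p was lost without any 1 of 5 libraries (Exe replicate 3 or 4, or any Epi replicate). The most abundant, miR-181d-5p, stood at 105 to 143 in Exe and 208 to 353 in Epi. miR-34b-3p, of the p53-linked miR-34 family, was 4.74-fold higher in Epi, and miR-34c-3p was called there too at low counts, but not without any 1 of Exe replicates 1 and 4 and Epi replicates 1 and 3, and at -5.17 in place of -3.75 on the log2 scale without Exe replicate 3. In the miR-130 family 1 of 8 was called, miR-130b-5p in Epi. Of the miR-29 and miR-148 families, known to target mRNAs of Dnmt genes, 0 of 9 were called by edgeR, and 0 by DESeq2 or at an unadjusted p under 0.05 with the fold threshold, and miR-148a-3p read 5201 to 5613 in Exe and 4247 to 4843 in Epi. Of the miR-15 family 0 of 9 were called by edgeR, and 1, in Exe, by DESeq2 or at an unadjusted p. For the other lists with 0 calls in one direction, DESeq2 and the unadjusted p gave at most 3 calls in that direction, and 0 for miR-290, miR-302, the miR-17~92 lists, the Sfmbt2 families, the germline X-linked list and the neural list.

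**Figure D3:**
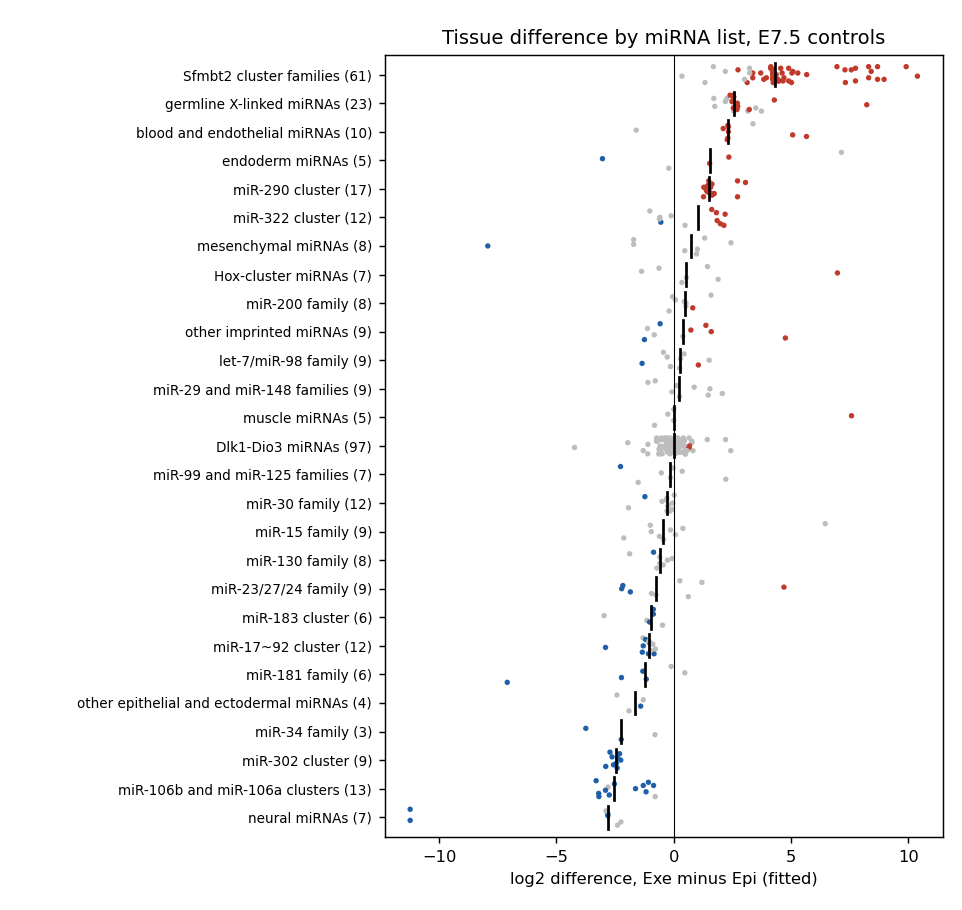
Fitted log2 difference, Exe minus Epi, of the tested members of 27 miRNA lists (number tested in brackets), ordered by their median, which is a black bar. Red points were called higher in Exe, blue points higher in Epi and grey points neither. Sfmbt2 families have the highest median, 4.31, and neural miRNAs the lowest, -2.81.

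Markers of other cell types were measured beside these results. The blood and endothelial list had 8 of 10 tested miRNAs higher in Exe, or 6 of 8 with identical rows counted once, and it summed to 7373, 1981, 4702 and 4742 normalized CPM in the Exe libraries and to 1010, 907 and 699 in the Epi libraries. miR-142a-5p, known from blood cells, read 1875, 112, 979.8 and 1114 in Exe and 60.0, 24.6 and 4.64 in Epi. Without Epi replicate 1 its log2 difference was 6.09 in place of 5.07. miR-451a, of erythroid cells, read 119, 76.1, 49.8 and 19.1 in Exe and 0, 0 and 3.98 in Epi, and miR-126a-3p, of endothelium, 1968, 822, 1480 and 1032 in Exe and 425, 242 and 152 in Epi. The log2 difference of miR-451a, 5.66, ranged up to 9.51 without Epi replicate 3, the 1 Epi library with counts. Without Exe replicate 2 the list still had 8 of 10 calls. That library was low in several lists at once. It held 583 normalized CPM of the Hox-cluster miRNAs, whereas the other Exe libraries held 4504 to 8229 and Epi libraries 2586 to 5431, and 446 of the mesenchymal list, where the others held 1080 to 1421. miR-10b-5p read 5499, 399, 2828 and 3187 in Exe and 1701, 948 and 646 in Epi, and miR-10a-5p 1696, 132, 1021 and 1250 in Exe and 3377, 2745 and 1837 in Epi. Neither was called, but without Exe replicate 2 miR-10b-5p was called higher in Exe (log2 difference 1.71) and miR-10a-5p higher in Epi (-1.10). Among endoderm miRNAs, miR-192-5p was 5.08-fold higher in Exe (3011, 2868, 3824 and 2530 against 720.4, 698 and 387), without overlap, and miR-194-5p, of the same cluster, was called although 1 of its Exe libraries overlapped with Epi (364, 344, 315 and 185 in Exe, 71.6, 193 and 48.4 in Epi). The call of miR-194-5p was lost without any 1 of Exe replicates 1, 2 and 3 and Epi replicates 1 and 3, and its log2 difference went from 1.53 to 2.33 without Epi replicate 2. Of the 5 tested miRNAs of this list only miR-375-3p was Epi-high. The median of this list turned from 1.53 to -0.10 without Exe replicate 2. Calls in the remaining marker lists were single and near the detection limit. miR-196a-5p of the Hox clusters was at 3.82 to 20.9 in Exe and at 0 in all Epi libraries (at least 6.79-fold higher in Exe against 3 counts per library), and miR-499-5p of muscle at 4.61 to 44.0 in Exe and 0 in all Epi libraries (at least 10.5-fold). miR-199b-5p, of mesenchyme, was at 0 in all Exe libraries and at 15.8 to 29.2 in Epi (at least 5.66-fold higher in Epi). The call of miR-196a-5p was lost without Epi replicate 1 or 2. These were 1 of 7 tested Hox-cluster, 1 of 5 muscle and 1 of 8 mesenchymal miRNAs. In these bulk samples, fewer cells of a type and less RNA per cell cannot be told apart, and the part of other cell types in the tissue difference was not tested.

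**Figure D4:**
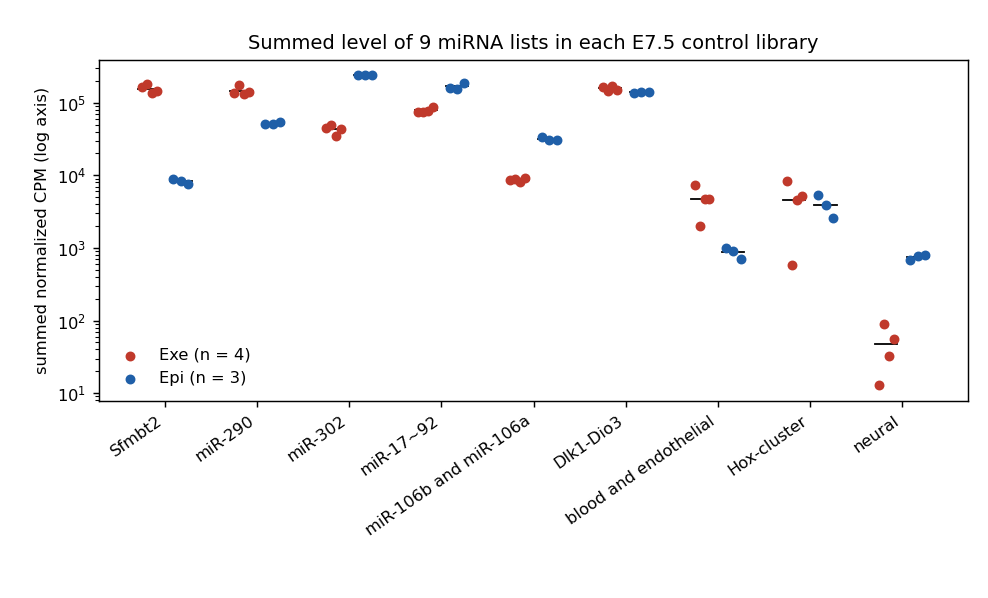
Summed normalized CPM (log axis) of 9 miRNA lists in each E7.5 control library, red for Exe, blue for Epi, with the mean as a bar. The pluripotency, miR-17~92 and Sfmbt2 lists separate the tissues with little spread, whereas the Hox-cluster list overlaps and Exe replicate 2, the second red point, is low in it and in the blood list.

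Imprinted loci were not alike. The Dlk1-Dio3 cluster on chromosome 12, the list with the most tested miRNAs, had 2 of 97 higher in Exe, 0 in Epi, and a median log2 difference of -0.01. The calls were small differences of miR-434-5p (0.65 ± 0.12 on the log2 scale) and miR-376b-3p (0.67 ± 0.19). The call of miR-376b-3p was lost without Exe replicate 2, Epi replicate 2 or Epi replicate 3. By DESeq2 3 were higher in Exe and 3 in Epi. Its sum was 144500 to 171200 normalized CPM in Exe and 134300 to 142300 in Epi. miR-127-3p, its most abundant member, read 35370, 33640, 41750 and 34500 in Exe and 29710, 32150 and 33080 in Epi, and although no library overlapped, the difference of 1.15-fold was not called (adjusted p = 0.137). miR-434-3p differed by 1.37-fold (adjusted p = 0.0028), under the fold threshold, with all Exe libraries above all Epi libraries. Of 9 miRNAs of other imprinted domains 4 were higher in Exe (both arms of miR-483, miR-335-3p and miR-675-3p) and 2 in Epi. The calls of miR-335-3p and of the rare miR-675-3p were lost without any 1 of Exe replicates 1, 3 and 4 and Epi replicates 1 and 2, and that of miR-335-3p also without Epi replicate 3. miR-675-3p had a log2 difference of 4.76, or 8.10 without Epi replicate 3 and 4.16 without Epi replicate 1. miR-483-3p, inside Igf2, read 2276, 1506, 2773 and 2643 in Exe and 891, 902 and 869 in Epi. miR-298-5p and miR-296-3p, of the Gnas domain, were higher in Epi, by 1.49-fold and 2.38-fold.

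The abundant miRNAs of least difference were miR-26a-5p, miR-99b-5p, miR-484, miR-125a-5p and miR-541-5p, the 5 smallest log2 differences among the 30 of highest mean level. miR-26a-5p read 26100, 24310, 29840 and 24240 in Exe and 26940, 26390 and 22910 in Epi (log2 difference 0.04 ± 0.10), and miR-484 10940, 10260, 10620 and 12780 in Exe and 12180, 10940 and 11940 in Epi (-0.07 ± 0.10). Their levels overlapped between the tissues. miR-191-5p differed by 1.40-fold, just under the fold threshold (log2 difference 0.48 ± 0.0923 (SE), adjusted p = 0.00266), and passed it without Exe replicate 1, Exe replicate 4 or Epi replicate 3, with log2 differences of 0.50 to 0.54.

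The 5p and 3p arms of one hairpin are cut from the same precursor. Of 198 hairpins with both arms tested, 38 had both arms higher in Exe, 13 both higher in Epi, 42 had 1 arm called, and 0 had arms called in opposite directions. The log2 differences of the arms correlated across hairpins (Pearson r = 0.81 over 198 hairpins, which share libraries and whose duplicated families are not independent). The counting placed reads on more than one name. Among the tested miRNAs, 69 names in 34 sets had identical counts in all 62 embryo libraries, and 41 of these names were called, 39 in Exe and 2 in Epi. For 11 sets the sequences known here are reverse complements over at least 14 bases, as for the Exe-high miR-126a-3p and miR-126b-5p, shown with the seeds in capitals.
miR-126a-3p: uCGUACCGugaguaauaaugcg
miR-126b-5p: aUUAUUACucacgguacgaguu
Partners of this kind cannot be told apart in these counts.

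Whether the tissue difference was the same a day earlier was tested with the interaction of tissue and stage in the 15 control libraries of both stages. The 8 control libraries of E6.5, 4 per tissue, were shallower, with 65751 to 202093 counts in Exe and 281158 to 458837 in Epi. In the full libraries, stage cannot be told apart from depth or from any difference in library preparation between the days. Of 558 miRNAs tested, the difference was higher at E7.5 for 63 (11.3%) and lower for 12 (2.15%). Leaving out E7.5 Exe replicate 1 or 4 lowered the number called to 39 or 49, and leaving out E7.5 Epi replicate 2 or 3 lowered it to 38 or 30. With all 15 libraries thinned to the total of the smallest, 50 of 308 tested were called, 35 higher and 15 lower at E7.5. The E6.5 Epi libraries were not alike. The Sfmbt2 families summed to 66770, 101700, 26700 and 22090 normalized CPM in them and miR-302 to 177800, 150800, 232700 and 243400, so replicates 1 and 2 were high in the Exe-high families and low in the Epi-high cluster. Without those 2 libraries 11 were higher and 6 lower at E7.5, and of the Sfmbt2 families 2 of 66 were called in place of 29 of 63, with a median interaction of 1.19 in place of 2.45. The miR-290 cluster had 15 of 18 calls, and 5 without those libraries, while its median interaction was 1.38 with and 1.51 without them. It summed to 186600, 255600, 249200 and 270600 in E6.5 Exe and to 171500, 196800, 186600 and 186800 in E6.5 Epi, nearer to each other than at E7.5, and in the same scaling to 141100, 177000, 129700 and 148000 in Exe of E7.5 and 51530, 49390 and 53120 in its Epi.

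**Figure D5:**
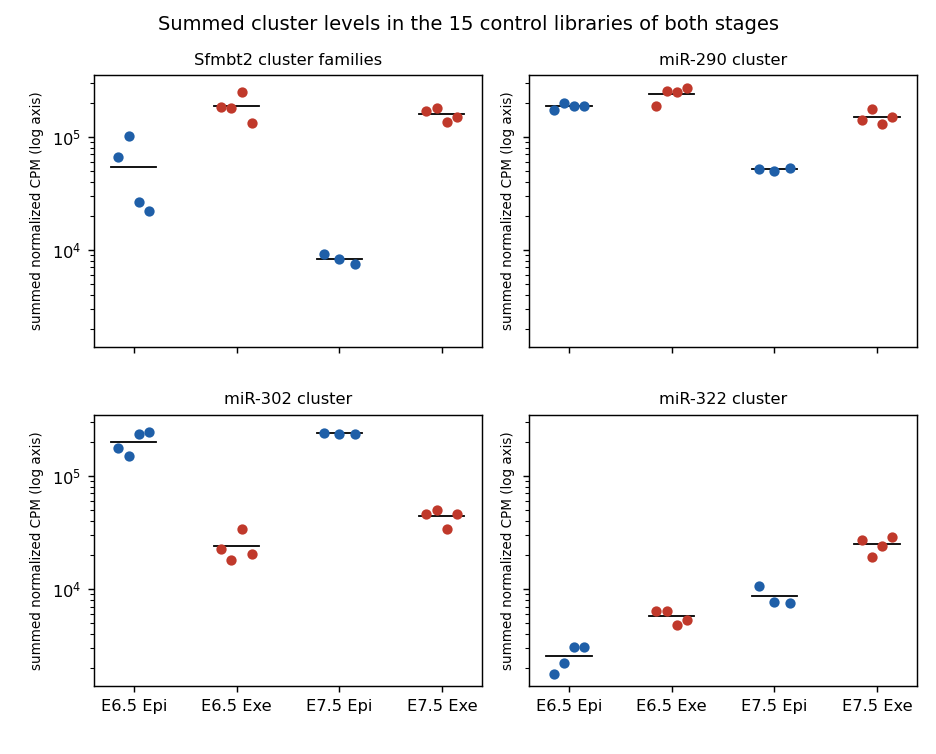
Summed normalized CPM (log axis, 1 scale for all panels) of 4 lists in the 15 control libraries of E6.5 and E7.5, blue for Epi and red for Exe, in replicate order from left to right, with means as bars. Within E6.5 Epi, the first 2 points are high for the Sfmbt2 families and low for miR-302, and miR-290 separates the tissues widely only at E7.5.

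Single miRNAs with an interaction that kept its call without those libraries included miR-375-3p, whose direction was opposite at the 2 stages. It read 0, 317, 156 and 214 in E6.5 Exe and 45.2, 14.4, 16.1 and 22.7 in E6.5 Epi, so 3 of 4 Exe libraries lay above all Epi libraries, whereas at E7.5 Epi was higher. Its log2 difference at E6.5 was 2.89 (adjusted p = 0.00376) in the edgeR fit of all 15 libraries and 2.95 (adjusted p = 0.0336) in that of the 8 E6.5 libraries alone. The interaction was -5.94 ± 0.90 (SE), adjusted p = 0.000996. miR-335-5p, of the imprinted Mest domain, was higher in Epi at E6.5, with 1248, 943, 1697 and 921 in Exe and 6620, 4882, 6169 and 5463 in Epi, and overlapped at E7.5, with 11310, 4849, 6847 and 7651 in Exe and 7110, 5723 and 4703 in Epi (interaction 2.68 ± 0.39 (SE), adjusted p = 0.000996). miR-142a-5p read 0, 72.5, 63.6 and 82.0 in E6.5 Exe and 212, 223, 205 and 241 in E6.5 Epi, below Epi in each Exe library, and was above Epi at E7.5 (interaction 6.99 ± 1.18 (SE), adjusted p = 0.00189). miR-295-3p read 61980, 84260, 79020 and 86780 and 56070, 59280, 56930 and 55770 at E6.5 (interaction 1.14 ± 0.19 (SE), adjusted p = 0.00189). miR-292a-5p, with the row of miR-292b-3p, overlapped at E6.5 and was Exe-high at E7.5 (interaction 1.82 ± 0.32 (SE), adjusted p = 0.00197). miR-455-3p was Exe-high at both stages and less so at E7.5 (interaction -2.07 ± 0.51 (SE), adjusted p = 0.0132). miR-92b-3p was Epi-high at both stages and more so at E7.5 (interaction -1.48 ± 0.39 (SE), adjusted p = 0.0173). For miR-302b-3p an interaction was not called (0.59 ± 0.27, adjusted p = 0.181).

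The same tissues of E7.5 mutant embryos are independent libraries, 23 in all, which share no sample with the control comparison. Of the 132 miRNAs higher in control Exe, those also tested had the same sign in 109 of 115 in Dnmt1-KO, 121 of 121 in Dnmt3a/3b-DKO and 114 of 116 in Dnmt-null embryos. They were called in the same direction for 79, 82 and 52, where 16.2%, 15.9% and 13.5% of all miRNAs tested in these genotypes were called higher in Exe. Of the 83 higher in control Epi, the same sign was found in 68 of 72, 77 of 77 and 63 of 67, with 43, 65 and 32 called, against backgrounds of 11.7%, 20.9% and 9.21%. In E6.5 controls the same sign was found for 91 of 103 and 51 of 59, and 54 and 31 were called, where 17.8% and 12.1% of all were. The opposite call was made for 0 in the mutants and for 1 in each direction at E6.5. miR-302 members were higher in Epi for 8 of 9 in Dnmt1-KO, 9 of 9 in Dnmt3a/3b-DKO and 9 of 9 in Dnmt-null embryos, and Sfmbt2 members higher in Exe for 36 of 45 in Dnmt1-KO, 43 of 54 in Dnmt3a/3b-DKO and 34 of 49 in Dnmt-null embryos. miR-290 calls in Exe were 11 of 17 in Dnmt1-KO, 15 of 17 in Dnmt3a/3b-DKO and 3 of 17 in Dnmt-null embryos, with medians of 1.15, 0.93 and 0.69 against 1.52 in controls. The germline X-linked list had 9 of 22 in Dnmt1-KO, 0 of 23 in Dnmt3a/3b-DKO and 1 of 22 in Dnmt-null embryos called in Exe, with medians of 0.94, 0.35 and 0.66 against 2.56 in controls. The blood and endothelial list had 2 of 9 in Dnmt1-KO, 3 of 10 in Dnmt3a/3b-DKO and 0 of 8 in Dnmt-null embryos called in Exe. Its medians were 0.39, 3.03 and 1.46 against 2.32 in controls. miR-142a-5p had log2 differences of 1.09 in Dnmt1-KO (not called) and 1.93 in Dnmt3a/3b-DKO (called). In Dnmt-null embryos its sign was opposite, at -2.11 (not called). Whether these lists differ between genotypes was not tested here. The number called fell to 67 in Dnmt-null embryos without Epi replicate 3, and to 59 and 62 at E6.5 without Epi replicate 3 and 4.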

How the data were processed

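The deposited table held raw read counts per mature miRNA. Per the methods, the authors prepared libraries by CAS-seq from 100 pg of RNA, trimmed reads with fastp 0.20.1, kept lengths of 15 to 40 nt, aligned these by bowtie 1.2.1.1 (GRCm38) and assigned them to mature miRNAs of miRBase 21 with a tolerance of 2 nt at the 3′ end. Adapter dimers were cut by Cas9. The methods mention no molecular identifiers and no collapsing of PCR copies, so the floors of 3 counts may cover counting error only. The authors' own test (DESeq2 1.30.1) was not used.

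From the counts, edgeR 4.0.16 (R 4.3.3) computed TMM factors, normalized CPM and quasi-likelihood tests on the 7 E7.5 control libraries after filterByExpr (minimum count 10). A miRNA was called at an absolute log2 fold change above 0.5 and a Benjamini-Hochberg adjusted p under 0.05 over all miRNAs tested. Percent of counts is of the library total. The interaction of tissue and stage was fitted on 15 control libraries, and each mutant genotype and E6.5 on its own. Alternatives were DESeq2 1.42.0, RLE factors, TMM without 4 lists, other count filters, a joint fit of E7.5, a replicate block, an unadjusted p, thinned counts, identical rows counted once and each library left out. The identical-row, paired E6.5 omission, mutant and E6.5 alternatives were chosen after seeing the data.

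miRNAs are named where they were, in each direction, among the 12 largest non-overlapping differences at 100 or more normalized CPM, the 10 most abundant of a tissue, the 4 most abundant or the most changed of a list, the 5 strongest interactions in each direction, or the 5 smallest differences among the 30 most abundant. 11 further ones (miR-20a-5p, miR-23b-5p, miR-32-5p, miR-93-5p, miR-106b-5p, miR-126b-5p, miR-291a-3p, miR-294-3p, miR-376b-3p, miR-434-5p and miR-450a-5p) were named after their values were seen, as members of a seed family, a pair or a small count. The members and lists were chosen with earlier results of these data known. Sequences and positions are from RefSeq on GRCm38.p6.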

Additional observations from a re-analysis of the deposited data

Results flagged for a closer look

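Among 104 values of named miRNAs in the 4 Exe libraries, 7 had 1 library outside Dixon's limit, about as many as chance flags (1 in 20 groups). Exe replicate 2 was the library for 5 of them. It was high for miR-291b-5p (3686 normalized CPM against 243 to 288 in the others), for the shared row of miR-292a-5p and miR-292b-3p (8057 against 4936 to 5318) and for miR-293-3p (37800 against 31380 to 32430), and low for miR-24-2-5p (4.61 against 86.0 to 96.3). Exe replicate 4 was high for miR-92a-3p (85820 against 72010 to 73930) and Exe replicate 3 was the 1 Exe library with counts of miR-488-3p (17.2).

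The tissue difference differed between stages, by the test of the interaction, for 29 of 99 named miRNAs. Of all 558 tested, 63 (11.3%) were higher and 12 (2.15%) lower at E7.5. Some of the named miRNAs were chosen for a strong interaction, so the 2 shares are not comparable. Without E6.5 Epi replicates 1 and 2, 17 of all tested miRNAs were called. Values are log2 differences of Exe minus Epi at E7.5 minus the same at E6.5. In the miR-290 cluster they were 1.14 for miR-295-3p, 0.99 for miR-291a-5p, 0.87 for miR-293-3p, 1.83 for miR-294-3p and 1.82 for both miR-292a-5p and miR-292b-3p. In the Sfmbt2 families, where the E6.5 Epi replicates 1 and 2 stood apart, they were 2.61 for miR-466a-3p and miR-466e-3p, 2.33 for miR-466h-5p, 2.68 for miR-466n-3p, 2.39 for miR-669a-5p and miR-669p-5p, 3.97 for miR-669f-3p, 6.85 for miR-669h-5p, which had no count in E7.5 Epi, and 3.85 for miR-669l-5p. Differences moved towards Exe also for miR-142a-5p (6.99), miR-126a-3p and miR-126b-5p (3.13), miR-672-5p (2.81), miR-335-5p (2.68), miR-335-3p (2.03) and miR-302a-5p (1.17). They moved towards Epi for miR-375-3p (-5.94), miR-92b-5p (-4.71), miR-125b-5p (-3.51), miR-455-3p (-2.07), miR-92b-3p (-1.48), miR-5099 (-1.44) and miR-92a-3p (-0.73). Stage and depth cannot be told apart in the full libraries. Thinned to equal depth, 50 of 308 tested miRNAs were called for the interaction.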

How the results depend on the processing

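The number of miRNAs called between the tissues at E7.5, 215, ranged from 167 to 256 over 17 alternatives, and 0 of the 215 calls was made in the opposite direction under any of them. It was 243 by DESeq2, 256 at an unadjusted p, 186 in the joint fit of E7.5 libraries and 183 to 215 with 1 library left out. Exe and Epi libraries of the same replicate number had correlations of deviations of 0.094, 0.046 and -0.039, and those of different numbers -0.126 to 0.043. Not every library was closest to its own number. So few libraries cannot decide whether replicate numbers pair the samples. The fit with the replicate number as a block also left out Exe replicate 4, and 167 of 603 tested were called between the tissues. Of these, 159 were among the 215 main calls. Leaving out that library without a block gave 202 calls. For the interaction, the block fit called 59 in all, against 75 in the main fit. TMM factors without the 4 cluster lists moved the median of all miRNAs from -0.046 to 0.135 on the log2 scale and the Exe share of calls from 61.4% to 67.0%, and under them miR-298-5p (-0.41) and miR-450a-5p (-0.38) were not called.

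The interaction calls, 75, became 149 at an unadjusted p, 17 without E6.5 Epi replicates 1 and 2, and 30 to 84 with 1 library left out. Dnmt-null calls, 106, became 165 at an unadjusted p and 67 to 156 with 1 library left out, and E6.5 calls, 109, became 59 to 133. The difference in the share of the 10 most abundant miRNAs was -16.7 to -15.6 percentage points with 1 library left out, where fewer assignments leave no p under 0.05. The endoderm list median was -0.10 to 2.20 with 1 library left out. Directions near 0 turned. With TMM factors computed without the 4 lists, miR-125a-5p was at 0.07, miR-484 at 0.11, miR-541-5p at 0.02 and miR-99b-5p at 0.16. With the replicate block miR-125a-5p was at 0.05 and miR-541-5p at 0.03. With no count filter miR-26a-5p was at -0.03, with thinned counts miR-99b-5p was at 0.01, and with identical rows once it was at 0.00. With 1 library left out miR-125a-5p ranged from -0.58 to 0.14, miR-26a-5p from -0.07 to 0.09, miR-32-5p from -0.28 to 0.56, miR-541-5p from -0.35 to 0.03 and miR-99b-5p from -0.22 to 0.05. The cause was not tested. Of 1450 values of the 87 named miRNAs that were called, 1350 kept their call and 0 turned. Of these miRNAs, 23 lost their call under at least 1 alternative, and not each such loss is given above. The shallowest Exe library had 499399 counts, so a miRNA under 5.73 normalized CPM there rests on fewer than 3 counts, and the E6.5 Exe libraries were shallower still.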
